A study of Mus musculus with 6 samples.

Results

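The potassium channel genes were taken as the protein-coding genes whose GENCODE M21 symbol starts with Kcn, which names pore-forming, silent and accessory subunits alike. This rule, which uses names and no measured value, was met by 94 of the 54532 genes counted. A further 5 genes with a Kcn symbol were noncoding and were left out. The genes were followed in poly-A RNA from the nuclei of mouse cardiomyocytes (CMs), bound through the centrosomal protein PCM1, 3 d after gene delivery. The comparisons ask what active YAP, the transcriptional coactivator of the Hippo pathway, did to these genes with and without its binding to TEAD factors.

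All mice were wildtype ICR animals that received 1e+11 viral genomes of AAV9 under the skin at 6 d of age, and hearts were collected at 9 d of age. The virus carried GFP (control), YAP5SA or YAP6SA, each under the cardiac troponin T (cTnT) promoter, which limits the transgene to CMs. YAP5SA cannot be phosphorylated by LATS kinases at its mutated serines and is therefore active. YAP6SA carries these mutations and a further serine-to-alanine change that inhibits TEAD binding. The study also reports that less YAP6SA than YAP5SA was nuclear and relatively more was cytoplasmic. TEAD binding and this difference in location cannot be told apart in the comparisons below. From 2 hearts per virus came 2 libraries per group, and the labels assign them to batch 1 and batch 2. Libraries held 14552847 to 19615627 gene counts. *Yap1*, the gene whose variants were delivered, had 1828 to 2647 counts per library and was not higher in either YAP group, so the overexpression was not visible in these counts. Markers of CMs (8 genes, among them *Myh6* and *Tnnt2*) were found in every library, with a summed level of 50230 to 67130 CPM (counts scaled to the library size, with TMM factors) in GFP, 48720 to 62230 in YAP6SA OE CMs and 31300 to 42730 in YAP5SA OE CMs.

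Potassium channels let potassium leave the myocyte and so set the resting potential and end the action potential. Voltage-gated (Kv) channels carry the outward currents of repolarization, inward rectifiers hold the resting potential, and K2P channels give a background leak. Accessory subunits such as KChIP, KCNE and Kv-beta proteins change the amount and gating of the pore subunits at the membrane. In the rodent ventricle, the fast transient outward current is carried by Kv4 pores with KChIP2, and it grows as the heart matures after birth.

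Of the 94 genes, 84 had a count above 0 in at least 1 library and 10 were at 0 in all of them, which allows up to 3 counts in each. The filter on low counts (median log2 CPM above 1 in at least 1 group) was passed by 35, and these were tested among 13323 genes. The other 59 were not tested, and 42 of the 94 had fewer than 30 counts in all. Of the 35, 26 passed in all 3 groups, 2 passed through GFP alone (*Kcna7* and *Kcnip3*) and 4 through YAP5SA alone (among them *Kcne3*, *Kcnk5* and *Kcnn4*). None of these 6 was called in any comparison.

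TEAD factors bind the letters GGAATG (or CATTCC on the other strand). These letters were searched on both strands in RefSeq promoter windows of GRCm38.p6, from 250 bases before to 50 after a transcript start. Windows were available for 69 of the 94 genes, and 14 of these (20.3%) held the letters in at least 1 window. Per window the share was 14.9% of 94 windows, against 14.7% of all 32817 windows. The CArG box of SRF, searched on the same windows, was in none of the 94 and in 1.63% of all. Of the 11 genes described below as lower in YAP5SA OE CMs than in GFP, 7 had a window (*Kcnip2*, *Kcnj2*, *Kcnd3*, *Kcnh2*, *Kcnj3*, *Kcnj5* and *Kcnn1*), and neither motif was found in it. For *Kcnh2* the single window lay within the gene, at the start of a shorter transcript. The 250 bases before the start are shown for the 2 genes with the largest falls, for *Kcnj5*, and for *Kcna5*, in which capitals mark the TEAD letters, 128 bases before the start. They lie at chr19:45816064-45816313 (minus strand), chr11:111065914-111066163 (plus strand), chr9:32344345-32344594 (minus strand) and chr6:126535556-126535805 (minus strand).
Kcnip2: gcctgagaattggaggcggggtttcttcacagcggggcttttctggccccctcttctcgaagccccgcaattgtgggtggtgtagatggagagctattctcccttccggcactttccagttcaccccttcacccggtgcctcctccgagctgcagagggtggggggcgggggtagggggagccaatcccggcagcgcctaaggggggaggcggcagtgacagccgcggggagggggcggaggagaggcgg
Kcnj2: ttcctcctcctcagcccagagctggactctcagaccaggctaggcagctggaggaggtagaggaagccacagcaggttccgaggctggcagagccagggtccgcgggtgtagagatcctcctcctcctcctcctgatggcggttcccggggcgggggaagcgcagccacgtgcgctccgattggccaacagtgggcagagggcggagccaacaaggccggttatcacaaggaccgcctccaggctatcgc
Kcnj5: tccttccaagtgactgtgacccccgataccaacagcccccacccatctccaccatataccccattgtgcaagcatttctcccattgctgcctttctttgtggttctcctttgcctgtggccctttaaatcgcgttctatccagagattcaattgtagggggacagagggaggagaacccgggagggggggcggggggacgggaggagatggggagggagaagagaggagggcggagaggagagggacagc
Kcna5: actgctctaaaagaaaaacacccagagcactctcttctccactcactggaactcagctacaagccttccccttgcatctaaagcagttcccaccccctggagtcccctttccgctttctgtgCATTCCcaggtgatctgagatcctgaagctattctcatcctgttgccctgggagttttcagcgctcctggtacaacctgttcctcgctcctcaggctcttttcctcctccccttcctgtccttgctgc
The *Kcnip2*, *Kcnj2* and *Kcnj5* sequences hold no capitals because the letters did not occur in them, and *Kcna5*, which holds them, was not called in any comparison.

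In GFP CMs, *Kcnip2* and *Kcnh2* stood above all other potassium channel genes. On the per-length scale (RPKM), *Kcnip2*, which encodes KChIP2, was at 158 ± 36.9 (SD, n = 2 libraries) and *Kcnh2*, which encodes the ERG pore of the rapid delayed rectifier, was at 142 ± 9.47, and their library ranges overlapped. *Kcnj11*, the Kir6.2 pore of the ATP-sensitive channel, followed at 43.4 ± 1.78 RPKM and *Kcng2*, a silent Kv subunit, at 34.1 ± 0.773 RPKM. *Kcnk3*, the TASK-1 leak channel, was at 19.0 ± 5.51 RPKM. These neighbours did not overlap. From *Kcne1* (11.3 ± 3.06 RPKM) through *Kcnj2* and *Kcnj5* to *Kcnq1* (7.68 ± 3.03 RPKM), each of these genes overlapped the next. *Kcnma1*, the BK channel pore of smooth muscle, had 4 counts over all 6 libraries, and its accessory subunit *Kcnmb1* had 16.

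**Figure D1:**
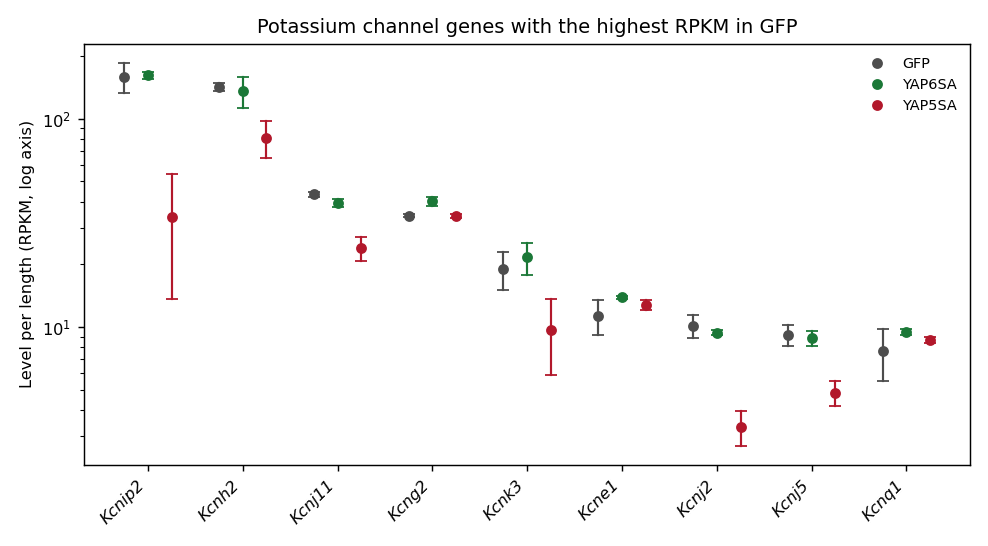
Level per length (RPKM, log axis) of 9 of the 10 potassium channel genes with the highest mean in GFP, in GFP (grey), YAP6SA (green) and YAP5SA (red). Points are means and the bars end at the values of the 2 libraries. *Kcnip2* led in GFP and YAP6SA, and *Kcnh2* led in YAP5SA.

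The order in YAP6SA OE CMs also began with *Kcnip2* (161 ± 9.42 RPKM) and *Kcnh2* (135 ± 31.8 RPKM), which overlapped. In YAP5SA OE CMs *Kcnh2* came first at 80.9 ± 23.4 RPKM, and *Kcnip2*, at 33.9 ± 28.8 RPKM, overlapped *Kcng2* at 34.1 ± 0.894 RPKM. The level of *Kcng2* in YAP5SA was thus the same as in GFP to 3 digits, while the genes around it in the order were lower.

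Summed over the 94 genes, the level was 1925 and 2195 CPM in the GFP libraries of batch 1 and batch 2, 1922 and 2183 CPM in YAP6SA, and 1288 and 854.7 CPM in YAP5SA. The YAP6SA libraries lay beside the GFP library of their batch, and both YAP5SA libraries lay below all others. *Kcnh2* and *Kcnip2* together made up 58.0% and 62.1% of the sum in GFP and 51.3% and 42.0% in YAP5SA. Without them the sum was 820.3 ± 16.57 CPM in GFP, 838.9 ± 2.417 CPM in YAP6SA and 561.8 ± 93.41 CPM in YAP5SA (mean ± SD, n = 2 libraries). These sums are a description with no test.

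**Figure D2:**
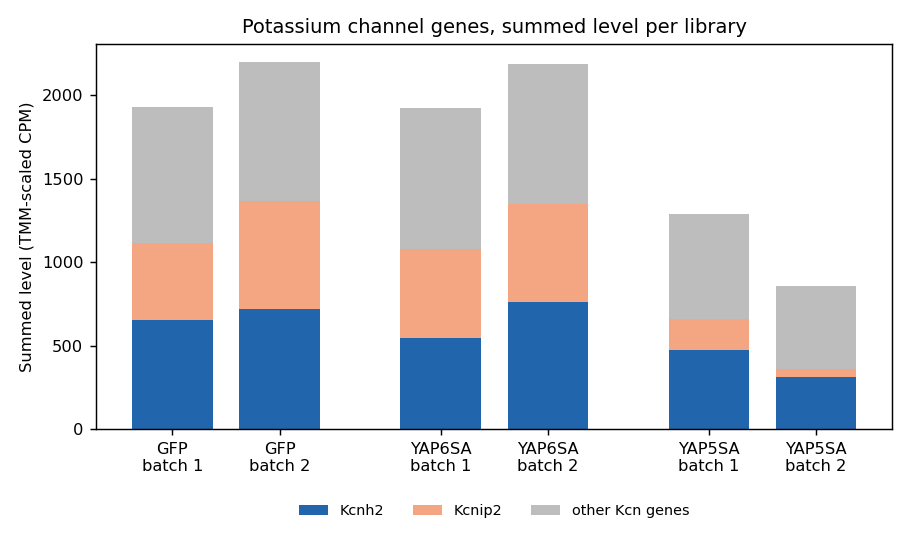
Summed level (TMM-scaled CPM) of the 94 potassium channel genes in each of the 6 libraries, split into *Kcnh2*, *Kcnip2* and the others. The YAP5SA bars, at 1288 and 854.7 CPM, are lower than the 4 others, and the *Kcnip2* part shrinks most.

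YAP6SA OE CMs and GFP CMs were compared first. By edgeR's quasi-likelihood test (FDR under 0.05), 0 of the 35 tested potassium channel genes were higher and 0 were lower, against 0.045% and 0% of all genes tested. At an unadjusted p under 0.05, 0 were higher and 1 was lower, against 514 and 276 of the 13323 genes tested. DESeq2, limma-voom and the likelihood ratio test also called 0 of the 35 in either direction. Over all genes, DESeq2 called 40 higher and 14 lower, limma-voom 6 and 0, and the likelihood ratio test 54 and 28. The fit of only the 4 libraries compared called 198 higher and 78 lower over all genes, and 0 of the 35. The study reports more genes in both directions at the same FDR than any of these fits called. The quasi-likelihood test called few genes of any kind here. Its 0 of the 35 therefore does not show that potassium channel genes were unchanged or set apart from other genes. In that fit the log2 fold changes of the 35 ran from -1.16 to 0.78, with a median of 0.06 against 0.0018 over all genes tested. For the genes measured most deeply the estimates were near 0. *Kcnh2* had a log2 fold change of -0.08 (SE 0.24) and *Kcnj11* of -0.13 (SE 0.16). *Kcnip2* was at 460.0 and 641.1 CPM in GFP and 536.6 and 583.0 CPM in YAP6SA, so that the YAP6SA libraries lay between the GFP libraries. Its log2 fold change was -0.00093 with an SE of 0.44. The 1 gene with an unadjusted p under 0.05 was *Kcnab3*, at 10.93 and 11.62 CPM in GFP and 5.85 and 7.457 CPM in YAP6SA, with an FDR of 0.74.

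YAP5SA OE CMs and GFP CMs were compared next. Of the 35 tested genes, 11 were lower in YAP5SA, which is 31.4%, against 9.18% of all genes tested. Only *Kcnk6* was higher, 1 of 35, against 12.8% of all genes. The median log2 fold change of the 35 was -0.49, against -0.0031 over all genes tested. Among the 11 lower genes were *Kcnip2*, *Kcnj2*, *Kcnn1*, *Kcnd3*, *Kcnj3*, *Kcnk3*, *Kcnab3*, *Kcnj5*, *Kcnj11* and *Kcnh2*. Both YAP5SA libraries lay below both GFP libraries for 16 of the 35 tested genes (45.7%), against 29.7% of all genes tested, and all 11 called genes were among the 16. Of the 20 genes listed for the known cardiac potassium currents, 18 were tested and 9 were lower, with none higher. These 9 are among the 11, and the list was chosen with earlier results of these data known.

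**Figure D3:**
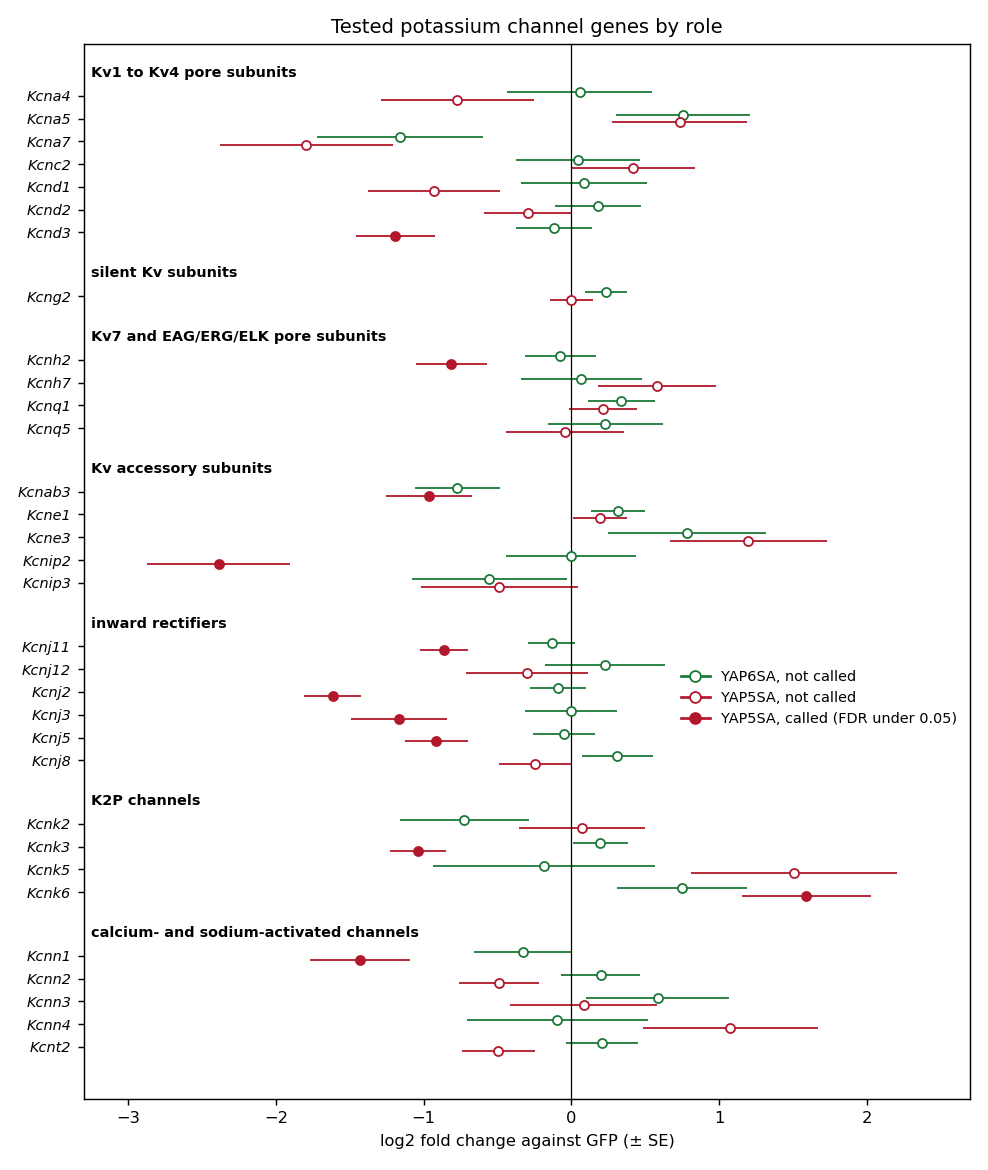
log2 fold change against GFP (± SE) of 32 of the 35 tested potassium channel genes, grouped by role, for YAP6SA (green) and YAP5SA (red). Filled points passed an FDR of 0.05 and all YAP6SA points are open. The filled red points lie to the left of 0 except that of *Kcnk6*.

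The largest fall was in *Kcnip2* (chromosome 19 of GRCm38, 45791839 to 45816061, minus strand), whose promoter is shown above. Its level was 460.0 and 641.1 CPM in the GFP libraries and 188.5 and 47.13 CPM in the YAP5SA libraries. Both YAP5SA libraries were below every GFP and YAP6SA library. The fit gave a 5.23-fold lower level (log2 fold change -2.39, SE 0.49, FDR 0.00834, edgeR quasi-likelihood test). Its size rested on single libraries, and the log2 fold change was -3.67 without the YAP5SA library of batch 1, -1.37 without that of batch 2, -3.12 without the GFP library of batch 1 and -1.72 without that of batch 2. Among the other accessory subunits, *Kcnab3*, a Kv-beta subunit, had 208 and 178 counts in GFP and 78 and 115 in YAP5SA, with a log2 fold change of -0.97 (SE 0.29, FDR 0.0398). The call of *Kcnab3* was lost in each of the 6 fits that left out 1 library (log2 fold change -1.09 to -0.832, FDR 0.0595 to 0.248). *Kcnab3* was also the 1 gene of the 11 whose YAP6SA levels, 5.85 and 7.457 CPM, lay below both GFP libraries by a comparable amount, and its level in YAP5SA did not pass the test against YAP6SA (log2 fold change -0.19, FDR 0.702). *Kcne1*, the beta subunit of the slow delayed rectifier, was at 29.39 and 43.29 CPM in GFP and 38.82 and 43.21 CPM in YAP5SA, and was not called. In all, 5 of 13 accessory genes were tested and 2 of them were lower.

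Of the Kv1 to Kv4 pore genes, 9 of 17 were tested. *Kcnd3* (chromosome 3, 105452330 to 105674002, plus strand), which encodes the Kv4.3 pore that binds KChIP2, was at 21.13 and 21.87 CPM in GFP and 12.32 and 6.95 CPM in YAP5SA. The groups did not overlap, and the level was 2.29-fold lower (log2 fold change -1.19, SE 0.27, FDR 0.0125). *Kcnd2*, which encodes the Kv4.2 pore of the same current, was at 13.83 and 14.82 CPM in GFP and 15.63 and 8.295 CPM in YAP5SA. The first YAP5SA library was above and the second below GFP, and *Kcnd2* did not pass the test (log2 fold change -0.29, SE 0.30, FDR 0.517). *Kcna4* and *Kcna5*, the Kv1.4 and Kv1.5 pores, were below 5 CPM in every library and were not called. Their log2 fold changes were -0.77 (SE 0.52) and 0.73 (SE 0.46).

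Among the Kv7 and EAG-family pores, 5 of 13 genes were tested and 1 was lower in YAP5SA than in GFP. This was *Kcnh2* (chromosome 5, 24319589 to 24351604, minus strand), which was at 656.7 and 721.6 CPM in GFP and 472.0 and 311.8 CPM in YAP5SA. The fall was 1.76-fold (log2 fold change -0.81, SE 0.24, FDR 0.0378). *Kcnq1*, the pore of the slow delayed rectifier and the partner of *Kcne1*, had levels of 22.66 and 40.22 CPM in GFP and 36.76 and 34.24 CPM in YAP5SA, and the groups overlapped (log2 fold change 0.22, SE 0.23, FDR 0.534). *Kcnq1* shares 121 exon bases with the opposite-strand RNA *Kcnq1ot1*. The libraries kept no strand, so ambiguous reads there are left out of the counts. Of the 10 silent Kv genes only *Kcng2* was tested. It was at 100.4 and 103.6 CPM in GFP, 126.3 and 113.5 CPM in YAP6SA and 103.9 and 100.2 CPM in YAP5SA, with a log2 fold change of -8.3e-06 (SE 0.14) between YAP5SA and GFP.

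The inward rectifiers were the role with the largest share of lower genes: 4 of the 6 tested, from 15 in all, and all 6 estimates were negative. *Kcnj2* (chromosome 11, 111066164 to 111076821, plus strand) encodes Kir2.1, the main pore of the current that holds the ventricular resting potential. It was at 62.09 and 48.45 CPM in GFP, 49.85 and 52.56 CPM in YAP6SA and 21.59 and 14.68 CPM in YAP5SA. The YAP5SA libraries were below all 4 others by a wide margin, and the level was 3.07-fold lower than in GFP (log2 fold change -1.62, SE 0.20, FDR 0.000784). *Kcnj12*, the related Kir2.2 pore, had levels of 2.522 to 3.943 CPM in the GFP and YAP5SA libraries and was not called (log2 fold change -0.30, SE 0.41).

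*Kcnj3* and *Kcnj5* encode the pores of the acetylcholine-activated channel of the atria and pacemaker. *Kcnj3* was at 25.29 and 42.38 CPM in GFP and 19.28 and 10.59 CPM in YAP5SA (log2 fold change -1.17, SE 0.33, FDR 0.0298). *Kcnj3* shares 1621 of its 5215 exon bases with the opposite-strand RNA *Gm26794*, where ambiguous reads are not counted. *Kcnj5* (chromosome 9, 32314707 to 32344350, minus strand) was at 37.96 and 47.93 CPM in GFP and 25.83 and 19.5 CPM in YAP5SA (log2 fold change -0.92, SE 0.21, FDR 0.0146). Both fell, while 5 of 8 atrial markers (among them *Myl7*, *Myl4*, *Nppa* and *Bmp10*) were higher in YAP5SA, against 12.8% of all genes tested. The summed level of the 8 atrial markers was 379.5 to 477.0 CPM in GFP and 696.3 to 715.9 CPM in YAP5SA, and the part of atrial cells in these values was not tested. The log2 fold change of *Kcnj3* was -1.86 without the YAP5SA library of batch 1 and -0.52 without that of batch 2, where it was not called (FDR 0.17), nor was it without the GFP library of batch 2 (-0.64, FDR 0.327).

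*Kcnj11* (chromosome 7, 46093953 to 46100764, minus strand) and *Kcnj8* encode the Kir6.2 and Kir6.1 pores of ATP-sensitive channels. *Kcnj11* was at 164.1 and 154.8 CPM in GFP and 99.5 and 76.39 CPM in YAP5SA, a 1.82-fold lower level (log2 fold change -0.86, SE 0.16, FDR 0.00614). *Kcnj8*, which is also known from mural cells, was at 11.25 and 14.63 CPM in GFP and 11.0 and 10.65 CPM in YAP5SA and did not pass the test (FDR 0.494).

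Among the K2P channels, 4 of 14 genes were tested, and 1 was lower and 1 higher. *Kcnk3* (chromosome 5, 30588170 to 30625271, plus strand) was at 91.05 and 60.07 CPM in GFP, 101.1 and 70.51 CPM in YAP6SA and 54.05 and 23.32 CPM in YAP5SA. In each group batch 1 was higher than batch 2, and within each batch YAP5SA was the lowest. The level was 2.06-fold lower than in GFP (log2 fold change -1.04, SE 0.19, FDR 0.0053). *Kcnk3* shares 229 exon bases with the opposite-strand transcript *Gm9899*. Without strand, reads there are ambiguous and are left out of the counts, so the level of *Kcnk3* may be understated. *Kcnk6*, the TWIK-2 channel, had 34 and 20 counts in GFP, 57 and 38 in YAP6SA and 73 and 79 in YAP5SA, and so rose at a low level, 3.01-fold against GFP (log2 fold change 1.59, SE 0.44, FDR 0.0284). *Kcnk2*, the mechanosensitive TREK-1 channel, stayed between 1.697 and 4.769 CPM and was not called.

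Of the calcium- and sodium-activated channels, 5 of 12 were tested and 1 was lower. *Kcnn1*, the SK1 channel, had 348 and 271 counts in GFP and 121 and 95 in YAP5SA, a 2.69-fold lower level (log2 fold change -1.43, SE 0.34, FDR 0.0158). *Kcnn2*, the SK2 channel, was at 8.885 and 16.72 CPM in GFP and 7.883 and 9.808 CPM in YAP5SA, and the groups overlapped (FDR 0.227).

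**Figure D4:**
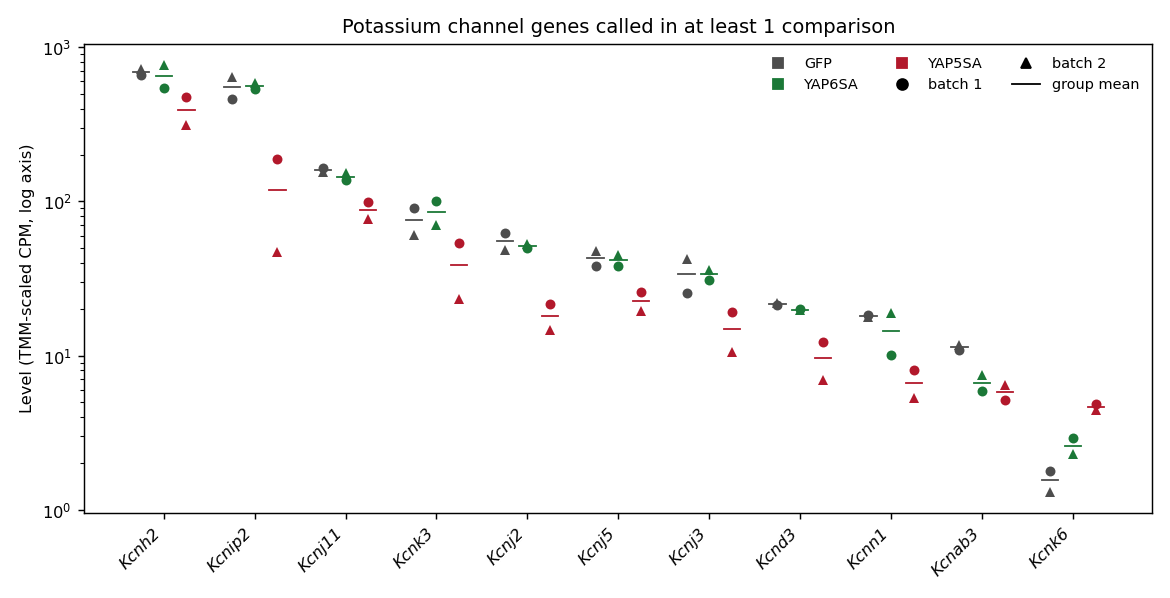
Level (TMM-scaled CPM, log axis) of 11 of the 13 potassium channel genes called in at least 1 comparison, in each library. Colour gives the group, the symbol gives the batch and the lines are group means. The red YAP5SA points lie below the grey GFP points in every gene but *Kcnk6*, and the green YAP6SA points lie beside the grey in most.

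The fall was unequal between the batches. All 11 genes were lower in YAP5SA than in the GFP library of the same batch in batch 1 and in batch 2. This follows from their groups not overlapping and is not a further result. Of the 11, 10 (90.9%) fell more in batch 2, against 84% of the 1223 genes of any kind called lower. The log2 ratio of *Kcnip2* was -1.29 in batch 1 and -3.76 in batch 2, that of *Kcnj3* was -0.39 and -1.99, and that of *Kcnj2*, the most even of the large falls, was -1.52 and -1.72. The YAP5SA library of batch 2 also had the lowest summed level of CM markers, 31300 CPM. Over the 8 CM markers the median log2 fold change against GFP was -0.55, with 1 gene (*Ryr2*) called lower. Over all 35 tested potassium channel genes the median was -0.49. Each of the 11 called genes fell more than the CM marker median, but they were picked by their fall, so nothing is drawn from this. What part fewer CM nuclei and what part less RNA per nucleus had in these values cannot be told apart in bulk RNA. Of the other marker lists, 2 of 8 mural genes and 2 of 8 macrophage genes were higher in YAP5SA, against 12.8% of all genes tested. None of the tested fibroblast (8 of 8), endothelial (8 of 8), conduction (4 of 8), neuron and Schwann cell (1 of 8) or erythroid (2 of 6) genes was called. The summed levels of the mural and macrophage lists in YAP5SA were 198.8 to 239.2 CPM and 85.57 to 122.3 CPM. In GFP they were 183.0 to 243.4 and 60.88 to 88.41 CPM, and the part of these cells in the result was not tested.

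**Figure D5:**
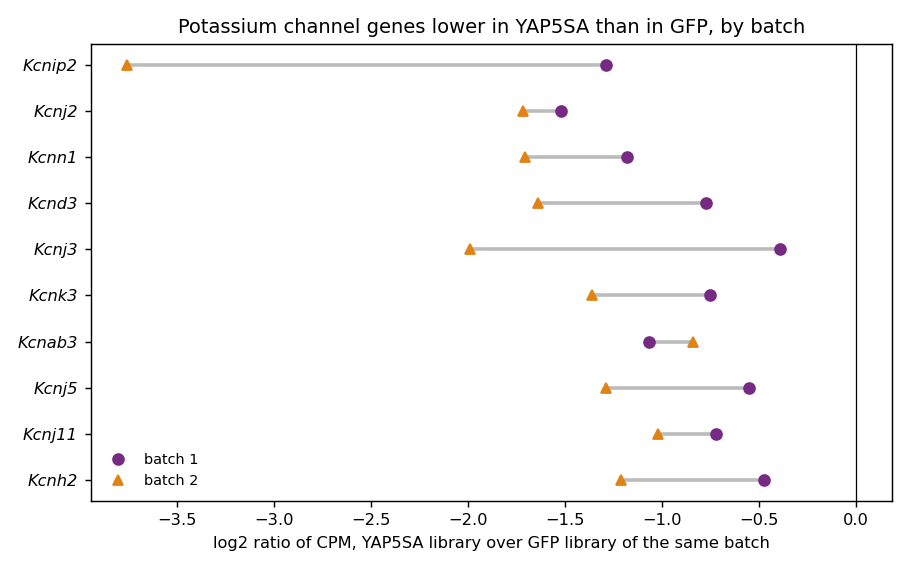
log2 ratio of CPM between the YAP5SA and the GFP library of the same batch, for 10 of the 11 potassium channel genes lower in YAP5SA. Circles are batch 1, triangles batch 2 and grey lines join them. All points lie below 0, and the distance between batches is widest for *Kcnip2* (-1.29 and -3.76).

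With 2 libraries per group, the count of 11 rested on single libraries. It fell without either GFP library, most without that of batch 2, and without the YAP5SA library of batch 2. It rose without the YAP5SA library of batch 1. The count of all genes called lower moved the same way in each of these fits. Only *Kcnip2* and *Kcnj2* were called in all 14 alternative fits, and *Kcnk6* was not called as higher without either GFP library or without the YAP5SA library of batch 2. Without the batch term 8 of the 11 were called, and 759 of all genes tested were called lower, against 1223 with it.

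YAP5SA and YAP6SA OE CMs were compared directly, and 8 of the 35 tested genes were lower in YAP5SA, or 22.9%, against 5.68% of all genes tested. None was higher, against 9% of all genes. At an unadjusted p under 0.05, 1 of the 35 was higher, against 2180 of the 13323 genes tested. DESeq2 called 0 of the 35 higher, against 1227 of all genes. The median log2 fold change was -0.53, against -0.013 over all genes. The 2 YAP5SA comparisons use the same YAP5SA libraries. Of the 8 genes, 7 were also lower than in GFP, namely *Kcnip2*, *Kcnj2*, *Kcnk3*, *Kcnj3*, *Kcnd3*, *Kcnj5* and *Kcnj11*.

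The values against YAP6SA stood near those against GFP for the genes with the largest falls. *Kcnip2* was 5.23-fold lower (log2 fold change -2.39, SE 0.48, FDR 0.011, and -3.71 or -1.41 without the YAP5SA library of batch 1 or 2) and *Kcnj2* 2.88-fold lower (log2 fold change -1.52, SE 0.20, FDR 0.0015). *Kcnk3* was 2.35-fold lower (log2 fold change -1.23, SE 0.19, FDR 0.00325). *Kcnj3* had a log2 fold change of -1.16 (FDR 0.0382, and -1.89 or -0.55 without the YAP5SA library of batch 1 or 2), *Kcnd3* of -1.08 (FDR 0.0251), *Kcnj5* of -0.86 (FDR 0.0245) and *Kcnj11* of -0.73 (FDR 0.017). *Kcnn1* (FDR 0.0589) and *Kcnh2* (FDR 0.0697) were lower than in GFP but missed the threshold against YAP6SA. Without the batch term the count of 8 fell to 4 (*Kcnip2*, *Kcnj2*, *Kcnj5* and *Kcnj11*), while that of all genes called lower fell from 757 to 301. The count of 8 also fell without either YAP6SA library or without the YAP5SA library of batch 2. It rose without the YAP5SA library of batch 1. The count of all genes called lower moved the same way in each of these fits.

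Genes that work with these channels but do not carry a Kcn symbol were read beside them, from a list of 17 of which 11 were tested. Against GFP, 5 were lower in YAP5SA and 1 was higher, where 9.18% and 12.8% of all genes tested were. None was called in YAP6SA, where 0.045% of all genes were higher and 0% lower. *Abcc9*, which encodes the SUR2 subunit of the ATP-sensitive channel, was at 271.8 and 387.2 CPM in GFP and 215.8 and 155.8 CPM in YAP5SA (log2 fold change -0.81, SE 0.22, FDR 0.0287), so it fell with the pore gene *Kcnj11*. *Abcc8*, which encodes the alternative subunit SUR1, was at 306.5 and 442.1 CPM in GFP and 310.1 and 318.7 CPM in YAP5SA and was not called (log2 fold change -0.22, FDR 0.407). *Amigo1*, a membrane protein that associates with Kv channels, was at 55.52 and 48.06 CPM in GFP and 32.39 and 29.14 CPM in YAP5SA (log2 fold change -0.75, FDR 0.012). *Akap9*, the anchoring protein of the slow delayed rectifier, was lower by a log2 fold change of -0.50 (FDR 0.0423), while *Kcnq1* and *Kcne1* were not called. *Tmem38a*, a potassium-permeable channel of the sarcoplasmic reticulum, was at 343.8 and 427.4 CPM in GFP and 300.3 and 136.9 CPM in YAP5SA (log2 fold change -0.91, FDR 0.0447). *Irx3*, a transcription factor of the ventricular conduction system, was at 40.59 and 63.73 CPM in GFP, 24.32 and 42.5 CPM in YAP6SA and 22.32 and 49.6 CPM in YAP5SA. The groups overlapped, and its log2 fold change against GFP was -0.60 in YAP5SA (FDR 0.0388) and -0.66 in YAP6SA (FDR 0.497). *Irx5*, known as a repressor of *Kcnd2*, was not called (FDR 0.508). *Sgk1*, a kinase that regulates channel traffic, was higher, at 40.11 and 26.64 CPM in GFP and 71.21 and 64.56 CPM in YAP5SA (log2 fold change 1.07, SE 0.23, FDR 0.0111). Against YAP6SA, *Abcc9* (log2 fold change -0.87, FDR 0.0287) and *Tmem38a* (log2 fold change -1.02, FDR 0.0364) were lower in YAP5SA. *Dpp6* and *Dpp10*, whose products join Kv4 channels in neurons, had 0 to 0.1212 CPM and 0 CPM in the 6 libraries.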

How the data were processed

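Poly-A RNA of PCM1-bound CM nuclei was sequenced from non-directional libraries, 2 per group. The authors aligned the reads to mm10 (STAR, Ensembl 94 annotation), and the deposited values are raw counts per gene with no normalization. Reads ambiguous between overlapping genes are outside these counts. Levels per length of genes with shared exon bases may thus be too low. Besides *Kcnj3*, *Kcnk3* and *Kcnq1* these include *Kcnk2* (604 bases) and *Kcng2* (272 bases). Genes were named from GENCODE M21 (54495 of 54532), and RPKM used the summed exon length.

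Counts were fitted with edgeR 4.0.16 in R 4.3.3 (TMM scaling, quasi-likelihood F test, terms for group and batch, all 6 libraries), after the filter and batch covariate of the study's methods, with Benjamini-Hochberg adjustment over 13323 genes. The study names a general linear model and not the quasi-likelihood test. CPM values are counts over the TMM-scaled library size, and a count of 0 allows 3 counts (counting error only, 0.153 to 0.199 CPM). Batch equals the replicate number in the labels and pairs the libraries, and same-batch deviations from group means correlated at 0.407 (GFP, YAP6SA), 0.111 (GFP, YAP5SA) and 0.183 (YAP6SA, YAP5SA) across genes. The batch term was called for 27 genes and for 0 of the 35 potassium channel genes. The replicates of a group were not copies of each other, since the chi-square per degree of freedom between them was 25.3 to 39.6. Libraries of different groups were not compared in this way. That each library is 1 heart was not stated in the sources used here.

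The alternatives were RLE scaling, no filter, at least 10 counts in every library, the likelihood ratio test, DESeq2 1.42.0, limma-voom 3.58.1, no batch term, only the 4 libraries compared, and each library left out. Genes named were the 20 of the cardiac current list, the 10 with the highest RPKM in GFP, those called in any comparison (25 in all, of which 23 are reported by name), 17 listed partners, and untested genes with at least 30 counts. *Kcna7*, *Kcnip3*, *Kcne3*, *Kcnk5*, *Kcnn4* and *Yap1* were named after their values were seen. The genes and lists were chosen with earlier results of these data known. Some genes are not reported here by name and are left out of the plots of single genes, but they remain in the counts and sums. Protein sequences were not used here.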

Additional observations from a re-analysis of the deposited data

How the results depend on the processing

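Alternative settings were RLE scaling, no filter on low counts, at least 10 counts in every library and the likelihood ratio test. DESeq2, limma-voom, no batch term and fits of 4 libraries were the others. Under these, 8 to 13 potassium channel genes were lower in YAP5SA than in GFP (11 in the fit above) and 1 was higher. Over all genes tested, 759 to 1565 were lower and 1331 to 2063 higher. From 34 to 84 potassium channel genes were tested, the most with no filter. The fits with no filter and with the likelihood ratio test added 2 genes, among them *Kcna7*. Against YAP6SA, 4 to 12 were lower (8 in the fit above), against 301 to 1161 of all genes tested. The count of 4 came without the replicate block, which is the batch term that pairs the libraries. The likelihood ratio test called 1 as higher (*Kcnk5*), against 1608 of all genes. Without the block, 8 were lower than in GFP, and *Kcnab3*, *Kcnh2* and *Kcnk3* were lost. With 1 library left out, and the lone library of its group assumed to vary like the other groups, 2 to 12 were lower and 0 to 3 higher than in GFP, and 3 to 13 were lower and 0 to 2 higher than in YAP6SA. The comparison of YAP6SA with GFP called 0 in every one of these fits. Over all genes, it called 6 higher and 0 lower in the 6-library fit above, and up to 198 higher and 78 lower in the fit of 4 libraries. The study itself reports more genes in both directions for YAP6SA at the same FDR, and the fit of 4 libraries came nearest to it. The count of all genes lower in YAP5SA than in GFP (1223) ran from 178 without the GFP library of batch 2 to 2282 without the YAP5SA library of batch 1, and the cause was not tested.

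No called log2 fold change of a named gene changed sign. Of the values not called, 16 did when a library was left out, and the ranges over these fits follow. Between YAP6SA and GFP they were -0.128 to 0.445 for *Kcnd2*, -0.464 to 0.252 for *Kcnh2*, -0.57 to 0.836 for *Kcnip2*, -0.326 to 0.0432 for *Kcnj11*, -0.365 to 0.165 for *Kcnj2*, -0.471 to 0.578 for *Kcnj3* and -0.25 to 0.169 for *Kcnj5*. They were -0.00497 to 0.375 for *Kcnk3*, -0.984 to 0.219 for *Kcnn1*, -0.124 to 0.543 for *Kcnn2* and -0.0526 to 0.775 for *Kcnq1*. Between YAP5SA and GFP they were -0.846 to 0.209 for *Kcnd2*, -0.0206 to 0.43 for *Kcne1* and -0.169 to 0.646 for *Kcnq1*. Between YAP5SA and YAP6SA they were -1.02 to 0.0358 for *Kcnd2* and -0.409 to 0.158 for *Kcnq1*. A further 36 sign changes of uncalled values were within 1 SE.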

Other observations

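Among the 59 untested potassium channel genes, 17 had at least 30 counts, and none of them was called when all genes with a count were fitted (edgeR quasi-likelihood test). *Kcnab1*, a Kv-beta subunit like *Kcnab3*, had 5 and 7 counts in GFP, 12 and 5 in YAP6SA and 27 and 35 in YAP5SA (log2 fold change against GFP 2.38, SE 0.90, FDR 0.06). *Kcnf1*, a silent Kv subunit, had 2 and 3 counts in GFP, 6 and 0 in YAP6SA and 18 and 25 in YAP5SA (log2 fold change 3.08, SE 1.33, FDR 0.122). *Kcnk13*, a K2P channel whose promoter window held the TEAD letters, had 7 and 8 counts in GFP and 21 and 24 in YAP5SA (FDR 0.439). *Kcnh6*, an ERG pore like *Kcnh2*, had 30 and 28 counts in GFP and 10 and 1 in YAP5SA (log2 fold change -2.27, SE 0.86, FDR 0.0612). *Kcna6*, a Kv1 pore, had 8 and 1 counts in GFP, 21 and 17 in YAP6SA and 20 and 13 in YAP5SA, and so was above GFP in both YAP groups (FDR 0.944 and 0.204). These genes were picked after their values were seen.

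The counts are of nuclear poly-A RNA, and neither protein nor current was measured. The 2 libraries of a group give a spread with 1 degree of freedom, which the fit shares across genes and groups. Genes with few counts, such as *Kcnk6*, carry wide errors: the SE of its log2 fold change was 0.44, against 0.16 for *Kcnj11*. Promoter windows covered 7 of the 11 lower genes and no distal element.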
